A study of Mus musculus with 3 samples.

Results

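The transcripts of 4 monocyte-attracting CC chemokines, *Ccl2*, *Ccl7*, *Ccl8* and *Ccl12*, and of the receptor gene *Ccr2* were followed in 3 single-cell libraries. The 5 genes were taken by symbol from the 27998 genes of the count tables, where each symbol had 1 row. The libraries came from C57BL/6J mice aged 10 weeks, male by the methods of the study, on day 3 after a dorsal burn with full transection of the Achilles tendon, an injury after which heterotopic ossification forms. All groups carried this injury, and no uninjured library was analysed here. Bone marrow was flushed from both femurs and lysed for red cells, blood was the mononucleated fraction of a density gradient with red cell lysis, and the tendon injury site was digested with collagenases and dispase at body temperature. There was 1 library per site and the sources used here do not state how many mice went into each, so the effects of site, tissue handling and library cannot be told apart, and with nothing to replicate a difference no test was made.

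CC chemokines are small secreted proteins with adjacent cysteines near the start of the mature chain. They bind receptors with 7 membrane passes, and CCR2, the receptor shared by the products of *Ccl2*, *Ccl7* and *Ccl12*, draws Ly6C-high monocytes out of bone marrow and into injured tissue. *Ccl2* encodes MCP-1, *Ccl7* MCP-3, *Ccl8* MCP-2 and *Ccl12* MCP-5, which is found in mice and not in humans. Mouse CCL8 signals mainly through CCR8.

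In GENCODE M21 (GRCm38) the 4 ligand genes lay on the plus strand of chromosome 11 in the order *Ccl2*, *Ccl7*, *Ccl12*, *Ccl8*, within 81.2 kb. *Ccl2* (ENSMUSG00000035385) was at chr11:82035571-82037453, *Ccl7* (ENSMUSG00000035373) at chr11:82045712-82047525, *Ccl12* (ENSMUSG00000035352) at chr11:82101845-82103400 and *Ccl8* (ENSMUSG00000009185) at chr11:82115185-82116799, each with 3 exons in its coding transcript. *Ccr2* (ENSMUSG00000049103) was at chr9:124101950-124113557 on the plus strand. The stretches of 42 coding bases below are shown because the adjacent cysteine codons, in capitals, give the family its name and because these genes could be confused in counting. They are read 5′ to 3′ from the GENCODE M21 transcripts.
Ccl2: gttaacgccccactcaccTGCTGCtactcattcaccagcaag
Ccl7: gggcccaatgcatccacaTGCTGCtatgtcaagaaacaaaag
Ccl12: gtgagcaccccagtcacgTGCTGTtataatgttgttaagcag
Ccl8: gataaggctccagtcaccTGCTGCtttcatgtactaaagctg
Between pairs of these stretches, 18 to 28 of 42 bases were the same. Over whole coding sequences, 223 of 448 aligned positions (49.8%) were the same for *Ccl2* and *Ccl8* and 203 of 303 (67.0%) for *Ccl7* and *Ccl8*. Gaps count as positions, and the *Ccl2* coding sequence had 447 bases against 294 for *Ccl7* and *Ccl8*. The percentages of pairs with *Ccl2* are lowered by this and do not rank the pairs by likeness. The longest run of bases shared by the coding transcripts of any pair was 23.

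The tables hold unique molecular identifier (UMI) counts, in which each UMI stands for 1 captured transcript end whatever the gene's length. Levels are given as UMIs of a gene per 1000000 UMIs of a group of cells (CPM), with exact Poisson 95% intervals that, like all intervals here, cover counting error only. After filtering there were 1813 marrow, 2146 blood and 4780 tendon cells, whose median depths were 22893, 8360.5 and 12177.5 UMIs. Cells were grouped by cluster, and clusters were called monocyte/macrophage-like, fibroblast-like and so on from marker genes. In the tendon library the cluster led by tenocyte markers held 39 cells and stayed unnamed because fibroblast markers led it too, and 184 keratinocyte-like cells were present. Kept cells shared 1 to 5 barcodes between pairs of libraries.

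The ligands were tendon transcripts in these libraries. *Ccl7*, *Ccl8* and *Ccl12* had 0 UMIs in every kept bone marrow and blood cell, which allows up to 0.0619 CPM in bone marrow and 0.137 CPM in blood over all kept cells. In the tendon library *Ccl7* had 29361 UMIs, *Ccl8* 29800 and *Ccl12* 5107. Of *Ccl2*, tendon cells had 49352 UMIs, blood cells 92 and bone marrow cells 45. *Ccr2* was read at all 3 sites, with 15484 UMIs in tendon, 7172 in blood and 11553 in bone marrow. The plot of levels by cell class shows the ligands at tendon classes and *Ccr2* at monocyte classes of every site.

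**Figure D1:**
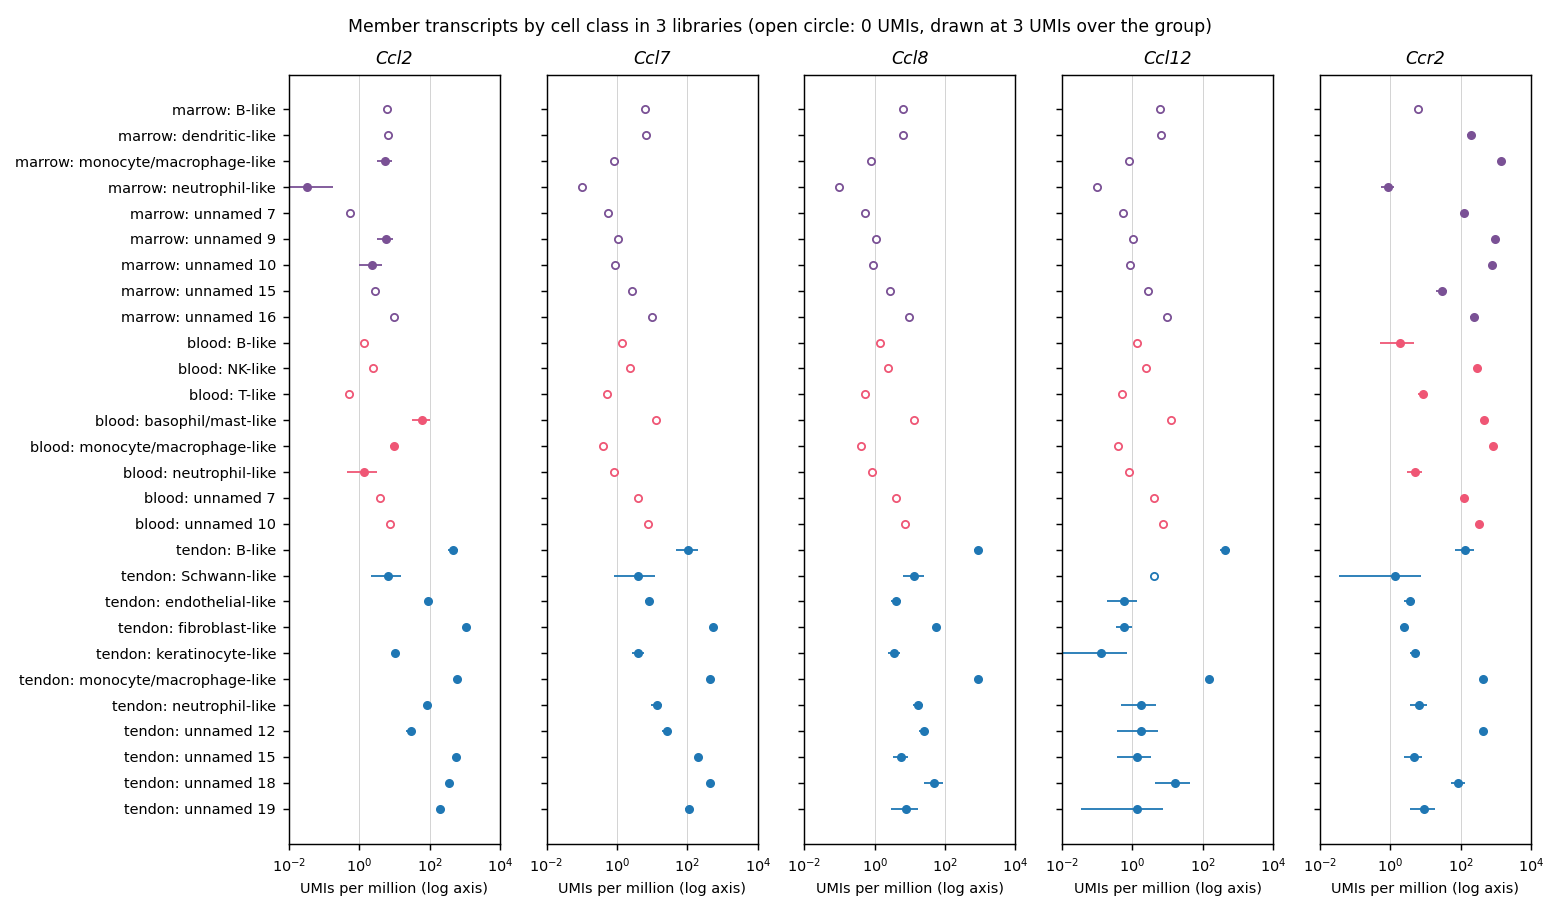
UMIs per 1000000 UMIs (log axis) of the 5 genes in each class of at least 20 cells, coloured by library, with exact Poisson 95% intervals. Open circles are groups with 0 UMIs, drawn at 3 UMIs over the group, and for *Ccl7*, *Ccl8* and *Ccl12* all bone marrow and blood classes are open circles.

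*Ccl2*, the main CCR2 ligand, was read chiefly in fibroblast-like and monocyte/macrophage-like cells of the tendon. The 658 fibroblast-like cells had 1047 CPM (95% interval 1034 to 1059) and the 2617 monocyte/macrophage-like cells had 598 CPM (590 to 606), a log2 difference of 0.81 (0.78 to 0.83). An unnamed cluster of 109 cells led by the smooth muscle genes *Acta2* and *Tagln* had 552 CPM (525 to 579). The 292 endothelial-like cells had 88.4 CPM, and the 184 keratinocyte-like cells had 10.4 CPM. Within the endothelial-like class, a cluster of 32 cells led by *Ccl21a* and with *Lyve1* among its leading genes had 252 CPM, and the other cluster, of 260 cells, had 74.8 CPM.

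*Ccl7* was also read in both of these classes. Fibroblast-like cells had 543 CPM (534 to 552) and monocyte/macrophage-like cells had 441 CPM (433 to 448), a log2 difference of 0.30 (0.27 to 0.34). An unnamed cluster of 47 cells with NK and basophil/mast markers had 454 CPM (373 to 547), an interval that spans the monocyte/macrophage-like level. The *Acta2* and *Tagln* cluster had 199 CPM, while endothelial-like cells had 7.92 CPM and keratinocyte-like cells 4.0 CPM.

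*Ccl8* and *Ccl12* were low in fibroblast-like cells. *Ccl8* had 844 CPM (834 to 854) in monocyte/macrophage-like cells and 55.7 CPM (52.9 to 58.7) in fibroblast-like cells, a log2 difference of -3.92 for fibroblast-like to monocyte/macrophage-like cells. *Ccl12* had 151 CPM (147 to 155) in monocyte/macrophage-like cells and 0.595 CPM in fibroblast-like cells, where 15 UMIs lay in 15 cells. Keratinocyte-like cells had 3.61 CPM of *Ccl8* and 0.129 CPM of *Ccl12*.

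Genes were counted as higher or lower at a fold of at least 2 among those with at least 20 UMIs in the groups compared, with a count of 0 set to 0.5 UMIs. In fibroblast-like against monocyte/macrophage-like cells, none of the 5 genes was higher, beside 30.7% of all genes, and *Ccl8*, *Ccl12* and *Ccr2* were lower, beside 20.1%. Of the 36 listed genes of CC chemokines and of typical or atypical chemokine receptors, 21 could be counted, of which 4 were higher (*Ackr1*, *Ackr3*, *Ccl11* and *Ccl20*, named after their values were seen) and 14 lower, with a median log2 difference of -5.46 against 0.27 for all genes, genes at 0 UMIs being set to 3 UMIs. The 14 took in *Ccl8*, *Ccl12* and *Ccr2*. *Ccl11*, the eosinophil attractant coded between *Ccl7* and *Ccl12*, had 58.2 CPM in fibroblast-like and 0.3 CPM in monocyte/macrophage-like cells. *Ccl1*, which lies beyond *Ccl8* and encodes another CCR8 ligand, had 0 UMIs in both.

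By share, 53.5% (53.1 to 53.9) of tendon *Ccl2* UMIs lay in fibroblast-like cells, which were 13.8% of cells and held 29.9% of all UMIs. A further 40.4% (39.9 to 40.8) lay in monocyte/macrophage-like cells, which were 54.7% of cells and held 39.5% of all UMIs. For *Ccl7* the shares were 46.7% and 49.99%, for *Ccl8* 4.72% and 94.4%, and for *Ccl12* 0.294% and 98.5%. *Ccr2* UMIs lay in monocyte/macrophage-like cells at 93.8% (93.4 to 94.2) and in 1 unnamed cluster of 156 cells, led by *Cd74* and *H2-Eb1*, at 4.76%.

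**Figure D2:**
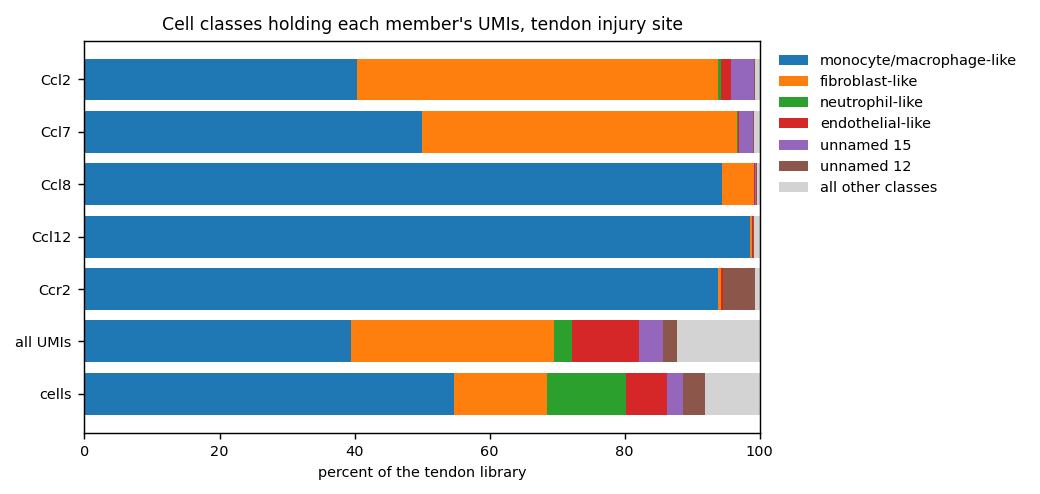
Percent of each gene's tendon UMIs held by cell class, with the classes' share of all UMIs and of cells in the lowest bars. Fibroblast-like cells hold 53.5% of *Ccl2* and 46.7% of *Ccl7* UMIs, and monocyte/macrophage-like cells hold 94.4% of *Ccl8*, 98.5% of *Ccl12* and 93.8% of *Ccr2* UMIs.

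Levels in the fibroblast-like clusters were as follows. The larger cluster of 393 cells, led by *Prg4*, had 1205 CPM of *Ccl2*, 534 of *Ccl7* and 36.1 of *Ccl8*. The other large cluster, of 252 cells, had 673, 588 and 109 CPM. Of the 4 genes with enough UMIs (*Ccl12* had 8 and 6), none was at least 2-fold higher in the first (9.15% of all genes were) and 1, *Ccl8*, was at least 2-fold lower (9.99% of all genes were), with a log2 difference of -1.60 (-1.75 to -1.45). A small cluster of 13 cells had 139 CPM of *Ccl2* and 79.4 of *Ccl7*.

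Shares of cells were read after each cell was thinned to 1000 UMIs, since median depth was 35423.5 UMIs in fibroblast-like, 11891 in monocyte/macrophage-like, 38768.5 in keratinocyte-like and 3492 in neutrophil-like cells. *Ccl2* was then found in 41.2% (37.5 to 45.1) of fibroblast-like and 29.4% (27.7 to 31.2) of monocyte/macrophage-like cells, and in 0 of 183 keratinocyte-like cells, which allows up to 1.64%. Without thinning these shares were 85.1%, 63.1% and 17.9%. *Ccl8* was found in 15.4% of thinned monocyte/macrophage-like cells and in 6.09% of fibroblast-like cells. Thinning left out 55 monocyte/macrophage-like cells, 1 fibroblast-like cell, 1 keratinocyte-like cell and 21 neutrophil-like cells.

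Among the named subsets of monocyte/macrophage-like cells in the tendon, *Ccl2*, *Ccl7* and *Ccl8* were highest in resident macrophage-like cells. *Ccr2* was highest in classical monocyte-like cells. Resident macrophage-like cells (423 cells; markers such as *Cd163* and *Folr2*) had 1213 CPM of *Ccl2*, 1167 of *Ccl7*, 3307 of *Ccl8*, 377 of *Ccl12* and 280 of *Ccr2*. Classical monocyte-like cells (595 cells) had 260, 34.6, 6.76 and 4.50 CPM of these ligands and 793 CPM of *Ccr2*. The log2 difference of resident macrophage-like to classical monocyte-like cells was 2.22 (2.15 to 2.30) for *Ccl2*, 5.08 (4.88 to 5.28) for *Ccl7*, 8.94 (8.5 to 9.41) for *Ccl8*, 6.39 (5.85 to 6.98) for *Ccl12* and -1.5 (-1.58 to -1.42) for *Ccr2*. All 4 ligands were thus higher, beside 27.4% of all genes, and *Ccr2* was lower, beside 7.3%.

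The C1q macrophage-like cells (739 cells) lay between, with 591 CPM of *Ccl2*, 435 of *Ccl7*, 376 of *Ccl8*, 114 of *Ccl12* and 306 of *Ccr2*. Of these cells 485 were in 1 cluster that got the name on 3 markers and lost it at a subset margin of 2. Its first leading genes within the class were *Ppbp*, *Arg1*, *Cxcl3* and *Spp1*. Compared with classical monocyte-like cells the same 4 ligands were at least 2-fold higher (18% of all genes were) and *Ccr2* was lower (5.13% of all genes were). Compared with C1q macrophage-like cells, resident macrophage-like cells had all 4 ligands at least 2-fold higher (6.32% of all genes were), from a log2 difference of 1.04 for *Ccl2* to 3.14 for *Ccl8*. None was lower, beside 4.25% of all genes, and *Ccr2* differed between these groups by -0.13 (-0.21 to -0.04) on the log2 scale.

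*Ccl12* had its highest subset level in interferon-responding cells (127 cells), at 445 CPM (416 to 476), above the 377 CPM (362 to 392) of resident macrophage-like cells. In the interferon-responding cells *Ccl8* had 1071 CPM, *Ccl2* 570, *Ccl7* 486 and *Ccr2* 219. All 4 ligands were higher than in classical monocyte-like cells (15.5% of all genes were) and *Ccr2* was lower (10.7% of all genes were).

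Clusters within these names varied further. One resident macrophage-like cluster of 22 cells had 7509 CPM of *Ccl8*, 12.5% of that gene's tendon UMIs, and 4.04 CPM of *Ccr2* (2 UMIs). Its *Ccl2* level was 375 CPM (323 to 433) and its *Ccl7* level 424 CPM (368 to 485), against 591 and 435 CPM in C1q macrophage-like cells, so for these genes the higher level of the resident macrophage-like cells came from the other cluster. That cluster, of 401 cells, had 1283 CPM of *Ccl2* and 1229 of *Ccl7*. It had 2955 CPM of *Ccl8*, 58.6% of the tendon UMIs of that gene, and 303 CPM of *Ccr2*. A cluster of 62 cells with cycling markers, a median of 26539 UMIs and *S100a8*, *S100a9* and C1q genes among its leading genes had 588 CPM of *Ccl8* and 209 CPM of *Ccl12*. An unnamed cluster of 401 cells led by MHC class II genes joined a *Ccr2* level of 808 CPM with 501 CPM of *Ccl2*, 197 of *Ccl7* and 29.2 of *Ccl8*. Its *Ccr2* level was near the 793 CPM (771 to 816) of classical monocyte-like cells. Over the 10 clusters, *Ccr2* ran from 4.04 to 863 CPM, *Ccl2* from 249.8 to 1283, *Ccl7* from 17.3 to 1229, *Ccl8* from 6.75 to 7509 and *Ccl12* from 2.98 to 445.

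**Figure D3:**
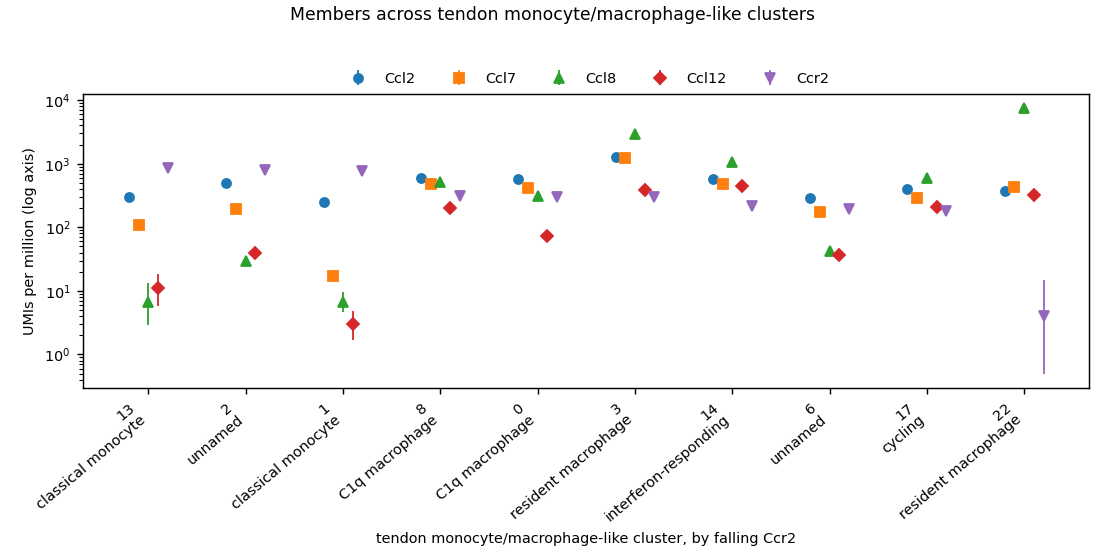
UMIs per 1000000 UMIs (log axis) of the 5 genes in the 10 monocyte/macrophage-like clusters of the tendon, ordered by falling *Ccr2*, with exact Poisson 95% intervals. The clusters with the highest *Ccr2* (863 CPM at the left) have *Ccl8* below 30 CPM, and *Ccl8* reaches 7509 CPM in the cluster with the lowest *Ccr2*.

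Few cells held most ligand UMIs. In monocyte/macrophage-like cells, 52 of 2617 cells held at least 50% of *Ccl8* UMIs, and 1 cell had 846. For *Ccl12* 75 cells held as much, for *Ccl7* 155, for *Ccl2* 218 and for *Ccr2* 431. In fibroblast-like cells, 67 of 658 cells held at least 50% of *Ccl2* UMIs and 78 did for *Ccl7*. In the unnamed cluster led by *Acta2* and *Tagln*, 9 of 109 cells held as much of *Ccl2* and 5 of *Ccl7*. The median cell of that cluster had 3 *Ccl2* and 0 *Ccl7* UMIs. In endothelial-like cells, 10 of 292 held at least 50% of *Ccl2* UMIs, and the median cell had 0.

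*Ccl2* and *Ccl7* transcripts were found together in single monocyte/macrophage-like and fibroblast-like cells. At 1000 UMIs per cell, *Ccl7* was found in 46.3% (42.7 to 49.9) of monocyte/macrophage-like cells with a *Ccl2* UMI and in 9.6% (8.3 to 11.1) of those without. In fibroblast-like cells these shares were 46.1% (40.1 to 52.3) and 19.9% (16.1 to 24.3). *Ccl2* was found in 28.5% (25.5 to 31.7) of monocyte/macrophage-like cells with a *Ccr2* UMI and in 29.9% (27.7 to 32.1) of those without, and unthinned in 64.9% and 59.1%. For *Ccl7* the thinned shares were 17.3% (14.8 to 20.1) and 21.9% (19.97 to 23.9), and for *Ccl12* 6.14% (4.60 to 7.99) and 9.30% (7.97 to 10.8). *Ccl8* was found in 7.7% (6.0 to 9.7) of monocyte/macrophage-like cells with a *Ccr2* UMI and in 19.1% (17.2 to 21) of those without. Of 2562 such cells, 57.1% had none of the 4 ligands, 21.8% had 1, 13.2% had 2, 6.25% had 3 and 1.64% had 4. A *Ccr2* UMI was found in 35.2% of cells with no ligand, 34.2% with 1, 23.7% with 2, 21.9% with 3 and 23.8% with 4. Cells of 1 library are not replicates, and these shares describe this library.

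**Figure D4:**
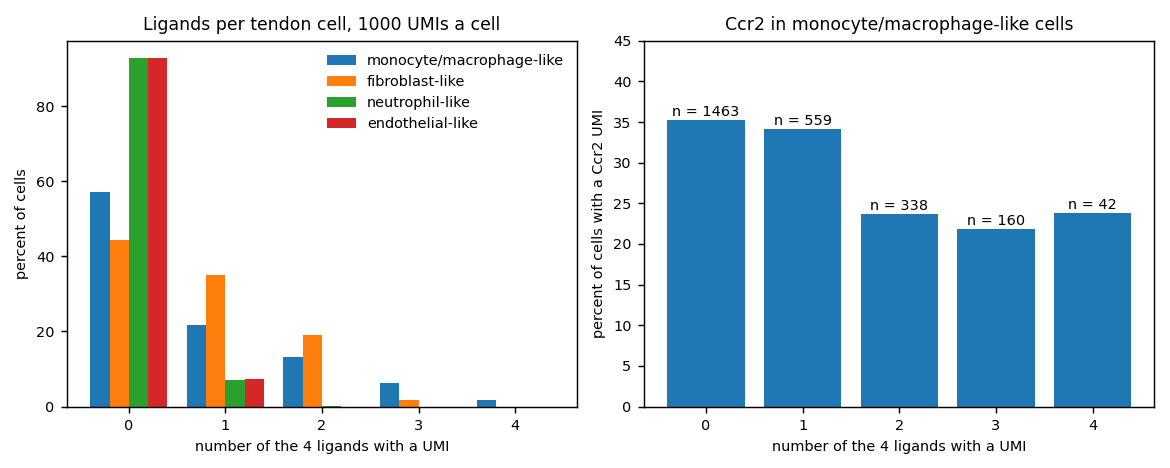
Left, percent of tendon cells by the number of the 4 ligands with a UMI at 1000 UMIs per cell, in 4 classes. Right, percent of monocyte/macrophage-like cells with a *Ccr2* UMI by that number, with the cells behind each bar. Of neutrophil-like and endothelial-like cells 92.8% and 92.7% have no ligand UMI.

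The 250 bases before the RefSeq starts of *Ccl8* and *Ccl12* are shown because monocyte/macrophage-like cells held 94.4% and 98.5% of the tendon UMIs of these neighbouring genes. They are on the plus strand of GRCm38.p6 at chr11:82114935-82115184 and chr11:82101595-82101844, with the letters TATAAA in capitals.
Ccl8: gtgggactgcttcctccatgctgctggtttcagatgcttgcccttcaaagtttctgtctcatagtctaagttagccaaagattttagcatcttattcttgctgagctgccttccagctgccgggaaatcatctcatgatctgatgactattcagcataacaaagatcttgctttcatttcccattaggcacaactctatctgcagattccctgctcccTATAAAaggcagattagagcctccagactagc
Ccl12: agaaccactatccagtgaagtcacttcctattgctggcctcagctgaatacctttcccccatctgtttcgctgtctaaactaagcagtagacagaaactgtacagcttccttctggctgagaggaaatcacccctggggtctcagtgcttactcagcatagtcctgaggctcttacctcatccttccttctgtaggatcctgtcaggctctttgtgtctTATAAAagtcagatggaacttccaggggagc
TATAAA began 32 bases before the *Ccl8* start and 31 before the *Ccl12* start, and on either strand it was in 12.4% of 32851 such windows. An NF-kB type motif and an interferon response type motif, each searched on both strands as a fixed pattern, were in neither window. They were in 1.41% and 2.98% of all windows. Sites that differ from the pattern or lie outside the 250 bases were not searched for. The *Ccr2* window (chr9:124101933-124102182), searched in the same way, had neither motif and no TATAAA. Most of this window lies inside the gene as placed by GENCODE M21, which starts at 124101950. It is therefore not matched to the *Ccl8* and *Ccl12* windows. Monocyte/macrophage-like cells held 93.8% of the tendon UMIs of that gene as well. No windows were available for *Ccl2* and *Ccl7*, so a contrast between the ligands was not tested.

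*Ccr2*, the receptor gene, was highest in bone marrow monocytes. Bone marrow monocyte/macrophage-like cells (194 cells, all classical monocyte-like) had 1406 CPM (1368 to 1445), blood monocyte/macrophage-like cells (446) had 844 CPM (824 to 865), and those of the tendon had 436 CPM (429 to 443). The log2 difference was -0.74 (-0.79 to -0.68) for blood to bone marrow and -0.95 (-1.0 to -0.91) for tendon to blood. Bone marrow also held *Ccr2* in unnamed clusters of 80 and 75 cells that had both monocyte/macrophage and neutrophil markers, at 984 and 768 CPM, and these clusters held 23.9% and 23.0% of bone marrow *Ccr2* UMIs.

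Within classical monocyte-like cells the steps were smaller. Bone marrow had 1406 CPM, blood (294 cells) 1121 CPM (1093 to 1150) and tendon 793 CPM (771 to 816). The log2 difference was -0.33 (-0.38 to -0.27) for blood to bone marrow and -0.50 (-0.55 to -0.45) for tendon to blood. The bone marrow cluster had 11 monocyte/macrophage and 5 neutrophil markers among its leading genes, and the blood cluster had 10 and 3. At a subset margin of 2 neither was named classical, so these steps rest on the looser naming. The 115 nonclassical monocyte-like cells of blood, which patrol vessels and depend on CX3CR1, had 61.7 CPM (46.8 to 79.7), a log2 difference of -4.18 (-4.58 to -3.81) from classical monocyte-like cells of blood. *Ccl2* had 0 UMIs in them against 73, and both *Ccl2* and *Ccr2* counted as lower and neither as higher, beside 12.1% of all genes in each direction. The other blood cluster of the class, 37 cells led by *Saa3* and *Fn1* with C1q genes, had 138 CPM. *Cx3cr1* had 385 CPM in nonclassical and 142 CPM in classical monocyte-like cells of blood.

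At 1000 UMIs per cell, a *Ccr2* UMI was present in 50.5% (46.4 to 54.6) of the classical monocyte-like cells from tendon, 60.5% (54.7 to 66.2) of those from blood and 67.7% (60.6 to 74.3) of those from bone marrow, at median depths of 10580, 18756 and 18799.5 UMIs. Without thinning these were 96.0%, 98.6% and 95.9%. In blood B-like cells, it was found in 0 of 365 thinned cells, which allows up to 0.822%, and in 0.27% unthinned at a median of 5043 UMIs.

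Lymphoid and basophil cells also had *Ccr2*. Blood NK-like cells (149) had 296 CPM (267 to 328), and the 35 basophil/mast-like cells had 462 CPM (379 to 557), an interval that overlaps that of the tendon monocyte/macrophage-like class. The unnamed tendon cluster led by *Cd74* had 441 CPM (409 to 474), and an unnamed blood cluster of 37 cells led by the same gene had 342 CPM (287 to 404). A blood T-like cluster of 51 cells had 119.5 CPM, beside 8.43 CPM for all 648 T-like cells. Bone marrow dendritic-like cells had 194 CPM. Neutrophil-like cells had 0.851 CPM in bone marrow, 5.15 in blood and 6.69 in tendon, and tendon fibroblast-like cells had 2.50.

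Between tendon and blood monocyte/macrophage-like cells, all 4 ligands were higher in the tendon, beside 20.6% of all genes, and none of the 5 genes was at least 2-fold lower, beside 12.6%. *Ccr2* lay close to that threshold at -0.95, and it passed it, as 2-fold lower, without mitochondrial and ribosomal protein genes (-1.03) and, in a check chosen after the data were seen, without the blood cluster of 37 cells with C1q genes (-1.15). *Ccl2* had 598 CPM against 9.65 (73 UMIs), a log2 difference of 5.95 (5.62 to 6.31). Against 3 UMIs over the blood group, *Ccl7* was at least 1111-fold, *Ccl8* at least 2130-fold and *Ccl12* at least 381-fold higher. Between blood and bone marrow only *Ccl2* and *Ccr2* had enough UMIs, and neither was 2-fold higher (6.35% of all genes were) or lower (3.4% were). In classical monocyte-like cells alone *Ccl2* had 260 CPM in tendon, 13.3 in blood and 5.40 in bone marrow. All 4 ligands were higher in tendon than in blood there too (9.51% of all genes were) and none was lower (17.5% were), by at least 63.5-fold for *Ccl7*, 12.4-fold for *Ccl8* and 8.27-fold for *Ccl12*. In the blood cells *Ccl2* was 2.46 times its bone marrow level, 1 of the 2 genes counted, beside 2.45% of all genes, and neither was lower, beside 3.85%. From bone marrow to tendon monocyte/macrophage-like cells the 4 ligands were again higher (23% of all genes were) and *Ccr2* was lower (12.7% were), at a log2 difference of -1.69 (-1.74 to -1.64). At 0 UMIs in blood and in bone marrow, *Ccl7*, *Ccl8* and *Ccl12* could only be counted as higher in these comparisons with tendon. Of the ligands, only *Ccl2* could have been counted either way.

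Other genes of the system were counted in the same comparison. Of 36 CC chemokine and receptor genes, 3 with more than 1 row in the tables were left out and 18 had enough UMIs between tendon and blood monocyte/macrophage-like cells. Of these, 10 were higher in the tendon (20.6% of all genes were) and none was lower (12.6% were). The 10 took in *Ccl2*, *Ccl7*, *Ccl8* and *Ccl12*, of which the last 3 could only be counted as higher. The median log2 difference was 2.49 against 0.04 for all genes. *Ccr1*, a receptor of several inflammatory CC chemokines, had 214 CPM in tendon and 112 in blood. *Ccr3* had 2.8 and 0.3 CPM, and *Ccr8*, the receptor of mouse CCL8, had 0 UMIs in both. The listed genes with the highest CPM in the tendon class were *Ccl6* (1768), *Ccl9* (1001) and *Ccl8*. In fibroblast-like cells they were *Ccl2*, *Ccl7* and *Ackr3* (133), an atypical receptor on the list that is not a CC chemokine receptor. *Ackr1*, which binds chemokines on venules, had 250 CPM in endothelial-like cells, and *Ackr2* had 6.9.

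Other monocyte attraction genes were split. Of 14 with enough UMIs between tendon and blood, 5 were higher in the tendon (20.6% of all genes were) and 5 lower (12.6% were). Their median log2 difference was 0.32 against 0.04 for all genes. *Csf1*, the macrophage growth factor, had 110 CPM in fibroblast-like cells and 197 in tendon neutrophil-like cells, while its receptor *Csf1r* had 421 CPM in tendon and 386 in blood monocyte/macrophage-like cells. *Cxcl12* had 804 CPM in fibroblast-like cells, *Cx3cl1* had 10.5 in endothelial-like cells, and *Cx3cr1* had 32.8 CPM in tendon against 152 in blood monocyte/macrophage-like cells. Of the 18 immediate early and stress genes, 14 were higher in the tendon than in blood, beside 20.6% of all genes, and none was lower, beside 12.6%. Their median log2 difference was 2.16. *Fos* had 1115 CPM against 253, *Egr1* 390 against 8.7 and *Hspa1a* 49.6 against 2.6. Their part in the ligand levels was not tested, and only the tendon library was digested. Within the tendon, 8 of 18 were higher in resident macrophage-like than classical monocyte-like cells (27.4% of all genes were), with a median log2 difference of 0.52 against 0.45. In C1q macrophage-like cells 3 of 18 were (18% of all genes were), with 0.25 against 0.29. Summed levels of the 18 genes were 12261 and 9388 CPM in the resident macrophage-like clusters. They were 8810 and 9284 CPM in the C1q macrophage-like and 9520 and 7749 CPM in the classical monocyte-like clusters. The fibroblast-like clusters of 393 and 252 cells had 5945 and 8944 CPM.

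*Ccl2* was also read in neutrophil-like cells. It had 86.9 CPM (75.1 to 100) in 560 tendon cells, 1.35 CPM (5 UMIs) in 388 blood cells and 0.0327 CPM (1 UMI) in 1205 bone marrow cells. The log2 difference of tendon to blood was 6.0 (4.76 to 7.64), and of 195 tendon UMIs at least 50% lay in 5 of the 560 cells. Without those cells, a check chosen after the data were seen, the difference was 4.97, and with cells named one by one it was 4.38. It was 7.37 with clusters named by fold over the other cells of the library alone, also chosen after the data were seen. *Ccl7*, *Ccl8* and *Ccl12* had 13.8, 17.4 and 1.78 CPM in tendon neutrophil-like cells and 0 UMIs in those of blood. Without thinning, these ligands were found in 31, 36 and 4 of the 560 tendon cells, and *Ccl2* in 59. Whether these UMIs came from the cells themselves was not tested. Of the 4 genes with enough UMIs, *Ccl2*, *Ccl7* and *Ccl8* were higher than in blood, by at least 17-fold for *Ccl7* and 21.4-fold for *Ccl8*, beside 16.6% of all genes, and none was lower, beside 15.5%. At 0 UMIs in blood and in bone marrow, *Ccl7* and *Ccl8* could only be counted as higher in tendon than at either site. Of the stress genes, 10 of 17 were higher in tendon than in blood neutrophil-like cells, beside the same 16.6% of all genes. Against bone marrow neutrophil-like cells the same 3 ligands and *Ccr2* were higher, beside 17.5% of all genes, and none was lower, beside 41.8%. *Ccr2* was found in 11 of the 560 tendon cells without thinning. Compared with tendon monocyte/macrophage-like cells all 5 genes were at least 2-fold lower, beside 59.4% of all genes, and none was higher, beside 10.3%, with log2 differences from -2.78 for *Ccl2* to -6.40 for *Ccl12*.

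Ligand UMIs were present at low levels in most tendon classes. Of the UMIs of the 4 ligands together, *Ccl2*, *Ccl7*, *Ccl8* and *Ccl12* made up 43.4%, 25.8%, 26.2% and 4.49% in all kept tendon cells. In keratinocyte-like cells they made up 57.4%, 22.0%, 19.9% and 0.709% of 141 UMIs, in neutrophil-like cells 72.5%, 11.5%, 14.5% and 1.49% of 269, and in endothelial-like cells 87.5%, 7.84%, 4.09% and 0.585% of 855. Free RNA from other cells was not tested as a source. In 22 tendon B-like cells *Ccl8* had 855 CPM and *Ccl12* 433 CPM, and all 75 and 38 of these UMIs were in 1 cell. In 35 blood basophil/mast-like cells all 14 *Ccl2* UMIs were in 1 cell.

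Likeness over the 20 groups of at least 50 cells was taken as Pearson's r of log2(CPM + 1), among 13461 genes with at least 100 UMIs, as a description of points that share libraries. The genes most like *Ccl2* were *Ccl7* (0.93), *Cxcl1* (0.93), *Pofut2*, *2900089D17Rik* and *Ptpn23*. Those most like *Ccl7* were *Gm15247* (0.94), *Ccl2*, *Cxcl1*, *Gm15726* and *Ctsk*. *Ccl8* was most like *Gm15247* (0.92), *Reps2*, *Il10*, *Ccl7* and *Apoa1*, and *Ccl12* most like *Ms4a14* (0.98), *Ppbp*, *Dppa3*, *Cd209f* and *Folr2*. *Ccl7*, *Ccl8* and *Ccl12* had 0 UMIs in every bone marrow and blood group. Genes read mainly in tendon therefore tend to a high r with them, and so do these ligands with each other. *Ccr2* was most like *Cx3cr1* (0.95), *Sh2d1b1*, *Ms4a6c*, *Hps5* and *Tyk2*. The groups pool the monocyte subsets of a site, so this likeness does not extend to differences between them. In blood, *Cx3cr1* was higher and *Ccr2* lower in nonclassical than in classical monocyte-like cells. Between *Ccr2* and the ligands r ran from -0.14 to 0.19.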

How the data were processed

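The deposited tables give raw UMI counts for each gene in each cell. Per the file headers the authors used Cell Ranger 5.0.1, and the submitters' processing notes name mm10. Cells with at least 200 genes and at most 20% mitochondrial UMIs were kept, and, to drop doublets, cells with the highest Scrublet scores were taken out (0.8% for every 1000 cells), because its automatic threshold marked 0 tendon cells. Each library was clustered alone in scanpy 1.11.5 (2000 variable genes without the 36 CC genes, 30 components, 15 neighbours, Leiden resolution 1). A cluster was named when at least 3 markers of a class were among its 100 leading genes by fold over the other cells of the library or over the median cluster, at least 2 times as many as for any other class (1.5 times for subsets). This rule was settled after clusters and values of the 5 genes had been seen, after 3 earlier versions. Subset names use the median cluster only.

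The 5 genes and all lists were chosen with earlier results of these data known. The other genes named are fixed receptors and ligands, the 3 CC genes highest in each source class and the 5 genes most like each member. For ratios the 95% interval is that of an exact binomial split of the UMIs, and for shares it is Clopper-Pearson. A count of 0 allows 3 counts over the group. The intervals and the thinning were tested on simulated data with independent counts. These lacked the concentration of UMIs in few cells seen for the ligands, so the test does not cover it. Depth was 49580625 UMIs in 1855 barcodes for bone marrow, 22542581 in 2241 for blood and 90621052 in 5629 for tendon. Alternatives changed the filters, doublets, clustering, naming, weighting, scaling and thinning. Python 3.11.15, Seurat 5.3.0 and R 4.3.3 were used.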

Additional observations from a re-analysis of the deposited data

Results flagged for a closer look

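UMIs of the 5 genes were also present in barcodes that the filters or the doublet step left out, above the 3 counts that a count of 0 allows, and there is no control library. In tendon these barcodes held 3395 *Ccl2*, 1362 *Ccl7*, 355 *Ccl8*, 119 *Ccl12* and 1113 *Ccr2* UMIs, in blood 6 *Ccl2* and 174 *Ccr2* UMIs, and in bone marrow 209 *Ccr2* UMIs. In the 198 tendon barcodes removed as doublets *Ccl2* had 701 CPM, and in the 651 removed by gene number or mitochondrial share it had 64.8 CPM.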

How the results depend on the processing

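Of 138 alternative values under 19 settings, 90 stayed within counting error of the reported value (for gene counts, within 1.5 times it) and 48 moved further. A change of direction could be counted only for log2 differences, and 0 of these changed direction. The log2 difference of *Ccr2* from blood to tendon monocyte/macrophage-like cells was -0.91 with doublets kept, -0.84 with cells named one by one, -0.59 with cells weighted equally and -1.03, past 2-fold lower, without mitochondrial and ribosomal protein genes. From bone marrow to blood it was -0.85 with no cell filter, -0.80 with a stricter one, -0.37 after joint integration, -0.55 with cells named one by one and -0.86 with cells weighted equally. The *Ccl2* difference in neutrophil-like cells was 4.38 with cells named one by one.

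The tendon UMIs in monocyte/macrophage-like cells were 39.0% of *Ccl2*, 48.9% of *Ccl7*, 93.6% of *Ccl8* and 97.6% of *Ccl12* with doublets kept, and fibroblast-like cells then held 5.14% of *Ccl8* and 0.537% of *Ccl12*. After joint integration the class held 94.7% of *Ccl8* and 99.3% of *Ccl12*, and fibroblast-like cells 51.8% of *Ccl2* and 45.9% of *Ccl7*. With cells named one by one these were 99.1% of *Ccl12*, 54.7% of *Ccl2* and 47.9% of *Ccl7*.

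Alternatives chosen after seeing the data changed the naming. By fold over the other cells of the library alone, the *Ccr2* differences were -0.67 and -0.54, the *Ccl2* difference in neutrophil-like cells was 7.37, and monocyte/macrophage-like cells held 29.3% of *Ccl2*, 37.1% of *Ccl7*, 83.6% of *Ccl8* and 79.7% of *Ccl12*. Fibroblast-like cells then held 46.6% of *Ccl7*, so the order of the 2 classes for this gene was the reverse of the reported one. By fold over the median cluster alone, fibroblast-like cells held 57.2% of *Ccl2* and 49.0% of *Ccl7*, and no bone marrow value could be had. Without the margin the bone marrow to blood difference was -0.54. With a subset margin of 2, *Ccl8* in C1q macrophage-like cells was 508 CPM, and no bone marrow or blood cluster was named classical. Without the cycling tendon cluster of 62 cells, the blood to tendon difference was -0.91 and the shares 39.0%, 48.3%, 91.0% and 91.6%. Without the blood cluster of 37 cells with C1q genes the *Ccr2* differences were -1.15 and -0.54.

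At 500 and 2000 UMIs per cell, *Ccl2* was found in 19.6% and 41.7% and *Ccr2* in 19.9% and 49.0% of tendon monocyte/macrophage-like cells, and *Ccl2* in 26.6% and 57.0% of fibroblast-like cells. Of 17 CC genes counted, 6 were at least 4-fold higher (9.18% of all genes were) and 0 lower (3% were) in resident macrophage-like than classical monocyte-like cells, against 10 (27.4%) and 3 (7.3%) at 2-fold. The higher genes took in *Ccl2*, *Ccl7*, *Ccl8* and *Ccl12* at either fold, and the 3 lower genes took in *Ccr2*. These counts are thus not separate from the values of the 5 genes. The cause of these shifts was not tested. No paired analysis was possible because each site had 1 library, and no replicate could be left out.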
